A study of Mus musculus with 48 samples.

Results

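Primary mouse sarcomas that had received 20 Gy of X-rays were compared with primary sarcomas that had received 0 Gy, all of them under an antibody against PD-1. The tumours were chosen by their labels (primary tumour, anti-PD-1, dose), which gave 8 irradiated and 8 unirradiated tumours, 16 of the 48 tumours in the series, and every gene measured in them was examined. All 16 mice were of the 129/SvJae strain and carried p53FL/FL, a p53 gene that Cre recombinase removes. They were 6 to 10 weeks old when an adenovirus carrying Cre was injected into the gastrocnemius muscle, followed by 300 µg of the carcinogen MCA. At a tumour volume of about 150 mm3 each mouse received 200 µg of muDX400, a mouse antibody against PD-1, into the peritoneum and then, straight away, 20 Gy or 0 Gy. Tumours were removed 3 days later. The field covered the entire left hind limb, so the muscle around the tumour was irradiated as well, and host cells that the virus did not enter kept their p53. The remaining primary tumours, 8 at each dose, received an isotype antibody in place of anti-PD-1 and serve for comparison below. The 16 allografts of the series grew from a single cell line, with 4 tumours in each of their groups.

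Ionizing radiation breaks DNA, and in cells with working p53 the breaks lead to transcription of Cdkn1a, Mdm2 and other targets that hold the cell cycle. DNA or RNA that reaches the cytosol is read by sensors such as cGAS and RIG-I, which start the production of type I interferon. Interferons act through JAK kinases and STAT transcription factors on genes with an interferon-stimulated response element (ISRE) in their promoters, and Cd274, which encodes the PD-1 ligand PD-L1, is among the genes that interferon raises. PD-1 itself is an inhibitory receptor on T cells, and the antibody that all 16 mice received blocks it.

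Each tumour gave a library of 34.7 to 53.3 M (mega) counts assigned to genes. Levels are given as counts-per-million values (CPM), the counts of a gene scaled to a common library total, and differences as the log2 ratio of 20 Gy over 0 Gy with its standard error (SE) from edgeR's quasi-likelihood test, fitted to the 32 primary tumours with 17770 genes. P-values were adjusted over all these genes by the Benjamini-Hochberg method, and a gene is said to have risen or fallen where the adjusted p was below 0.05. Tumours are numbered within each group in the order of their records, so a number is only a name. The titles list the tumours as separate specimens. The doses did not differ detectably in total counts, mitochondrial share, share of the 10 most abundant genes or number of genes detected (two-sided exact permutation test over 8 and 8 tumours, p from 0.101 to 0.390 over the 4 measures, adjusted p from 0.294 to 0.390). Collagen and fibroblast matrix genes summed to between 17480 and 96470 CPM in the 16 tumours, which are labelled sarcomas. Whole-gene counts of Trp53 cannot check the deletion, and ranged from 20.9 to 48.4 CPM without and from 21.5 to 52.5 CPM with radiation (log2 ratio 0.13 ± 0.19, adjusted p = 0.755).

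Several tumours stood apart from their group. Irradiated tumour 4 carried 110950 CPM of mature skeletal muscle genes, against 127.8 to 10087 CPM in the unirradiated tumours, and also had the largest mitochondrial share (2.32%). Irradiated tumours 8 and 3 held 32509 and 15501 CPM of the same genes. Irradiated tumour 5 had interferon and GTPase genes at control level and 0.216 CPM of the T cell receptor gene Cd3e, the lowest of the 16. Unirradiated tumour 4 was rich in neutrophil genes (621 CPM, the highest of its group). Irradiated tumour 8 held both Xist (5.94 CPM) and the Y-linked Ddx3y (57.2 CPM), and irradiated tumours 2 and 3 held little Xist (0.248 and 0.115 CPM) and 18.0 and 5.97 CPM of Ddx3y, which was above 50 CPM in the other tumours without Xist. Xist RNA is made in females and the Y chromosome is carried by males, so whether each of these 3 libraries holds RNA of a single mouse, or of cells that lost the Y chromosome, is in doubt and was not tested. None was left out, and counts that these tumours move are given without them below.

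Of the 17770 genes, 1407 (7.92%) differed between the doses. The larger part, 1077 genes (6.06%), rose after 20 Gy, with a median log2 ratio of 1.29, and 330 (1.86%) fell, with a median of -0.85. Over all genes the median was 0.02. Of the changed genes 820 moved by more than 2-fold, 709 of them upwards. In 79 genes (0.445%) the 8 irradiated tumours lay entirely above (59 genes) or entirely below (20 genes) the 8 unirradiated ones. Leaving out irradiated tumour 4 reduced the 1407 calls to 896, and 676 genes, 557 of them higher, passed in the full fit and in each of the 16 fits that left out a single tumour. In bulk tumour RNA, fewer cells of a type and less RNA per cell cannot be told apart, and this holds for every gene below.

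**Figure D1:**
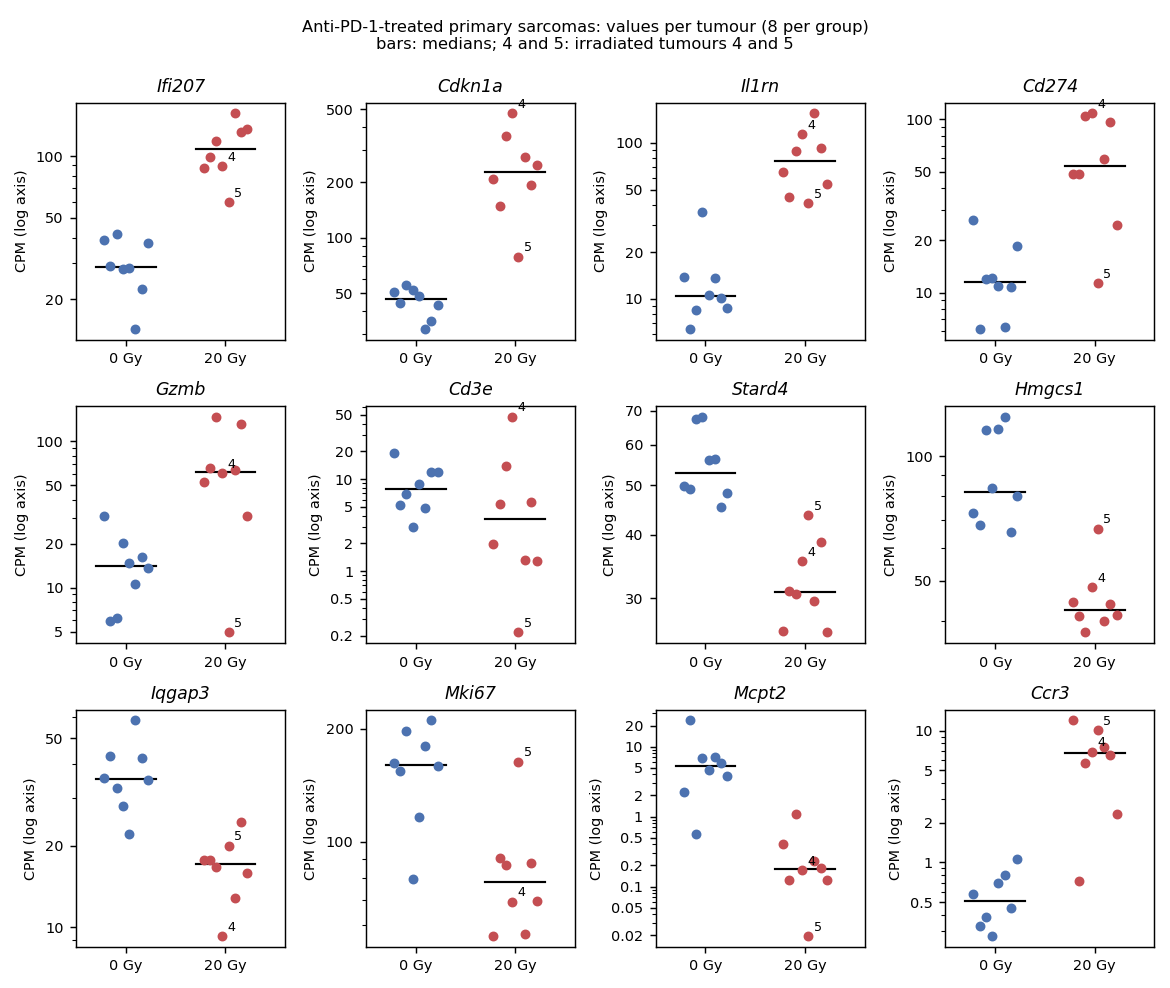
CPM (log axes) of 12 genes in each of the 8 unirradiated (blue) and 8 irradiated (red) tumours, with the group median as a bar and irradiated tumours 4 and 5 numbered. Ifi207, Cdkn1a and Il1rn are higher and Stard4 is lower in all 8 irradiated tumours, whereas Cd3e overlaps between the groups.

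The smallest p-value of the comparison belonged to Ifi207 (chr1:173723427-173741747 in GRCm38, the whole gene as annotated by GENCODE M21), a member of the Ifi200 or PYHIN family of interferon-inducible DNA-binding proteins. It ranged from 14.4 to 41.6 CPM, with a median of 28.8, in the unirradiated tumours and from 59.8 to 161 CPM, with a median of 108.8, in the irradiated ones. The groups did not overlap, and irradiated tumour 5 was the lowest of its group. The log2 ratio was 1.87 ± 0.18 (adjusted p = 2.09e-07, edgeR). All 12 members of the family rose, against 6.06% of all genes. Their median log2 ratio was 1.88, with a range from 1.11 for Ifi203 to 2.46 for Ifi213. The 12 calls held in every fit that left out a tumour. The family lies in a cluster of similar genes on chromosome 1, so the split of reads between its members is uncertain.

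The antiviral interferon-stimulated genes rose almost without exception. Of 30 genes 29 rose, with a median log2 ratio of 1.71, against 6.06% higher among all genes. Their summed level ran from 729 to 2261 CPM in unirradiated tumours (median 1687) and from 1519 to 8064 CPM in irradiated tumours (median 5021). Only irradiated tumour 5 lay within the control range, and irradiated tumour 4, at 2420 CPM, was just above it. Herc6, a ubiquitin ligase of this response, ranged from 6.6 to 14.4 CPM (median 9.5) without and from 17.5 to 55.8 CPM (median 31) with radiation. Its groups did not overlap (log2 ratio 1.78 ± 0.30, adjusted p = 0.000583). Oas3, which makes the 2'-5' oligoadenylates that activate RNase L, went from a median of 26.4 to 151 CPM (2.29 ± 0.41, adjusted p = 0.000942), and 7 of 8 irradiated tumours exceeded every control. The growth regulator Slfn5 (1.47 ± 0.26) and the TRIM protein gene Trim30a (1.44 ± 0.26) rose in the same way. The exception was Isg15, a ubiquitin-like modifier, at 19.2 to 198 CPM without and 62.2 to 832 CPM with radiation (1.67 ± 0.54, adjusted p = 0.0509). Tumour 4, with 62.2 CPM, was the lowest irradiated tumour for this gene. Reads of the Ifit and Oas genes, which have close copies, may also be split between members.

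Promoter sequences of the genes that rose together are shown for the letters they share. Within the 300 bases from 250 before to 50 after the RefSeq start (GRCm38.p6), the ISRE core GAAANNGAAA, on either strand and with overlapping matches allowed, was present for 3.86% of the 12412 tested genes with a promoter sequence. It was present for 13.5% of the 787 genes with a promoter that rose and 3.69% of the 244 that fell. Among the lists it was found for 9 of 11 Ifi200 genes and 14 of 23 antiviral genes. A match describes the letters only. The windows below, of 120 bases each, read 5′ to 3′ along the gene's strand and have the match in capitals; they are, in order, chr1:173741790-173741909 (minus strand), chr1:173942473-173942592 (minus), chr11:82951892-82952011 (plus), chr5:120777670-120777789 (minus) and chr7:104465174-104465293 (minus).
Ifi207: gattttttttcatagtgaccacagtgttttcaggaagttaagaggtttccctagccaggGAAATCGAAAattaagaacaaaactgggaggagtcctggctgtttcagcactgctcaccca
Ifi203: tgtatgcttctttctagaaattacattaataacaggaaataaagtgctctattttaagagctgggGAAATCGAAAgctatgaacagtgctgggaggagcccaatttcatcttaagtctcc
Slfn5: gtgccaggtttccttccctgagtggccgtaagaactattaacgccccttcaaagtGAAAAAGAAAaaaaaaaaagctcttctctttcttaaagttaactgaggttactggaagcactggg
Oas3: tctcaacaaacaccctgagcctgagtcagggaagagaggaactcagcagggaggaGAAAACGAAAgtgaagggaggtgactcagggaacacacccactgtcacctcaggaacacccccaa
Trim30a: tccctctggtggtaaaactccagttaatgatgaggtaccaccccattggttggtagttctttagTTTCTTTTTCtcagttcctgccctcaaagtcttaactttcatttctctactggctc
Ifi207 and Ifi203 share the same 10 letters, GAAATCGAAA, which begin 41 and 35 bases before their starts. In Trim30a the match lies on the opposite strand and therefore reads TTTCTTTTTC.

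The sensors of foreign nucleic acid and the interferon signalling genes also rose in part. Of 13 sensors and regulators 9 rose (median log2 ratio 1.12), against 6.06% of all genes. Dhx58, which encodes the RIG-I relative LGP2, went from a median of 26.1 to 75.4 CPM (1.64 ± 0.31, adjusted p = 0.00176) and its groups did not overlap. Zbp1, a sensor of Z-form nucleic acid, rose by 1.87 ± 0.37, and the RIG-I gene Ddx58 by 1.12 ± 0.27. Cgas itself had a log2 ratio of 0.01 ± 0.18 (adjusted p = 0.98) and Tmem173, the gene of its adaptor STING, 0.55 ± 0.20 (adjusted p = 0.081). Among 19 receptor, kinase and transcription factor genes 13 rose, with a median of 0.70, and 8 rose without irradiated tumour 4. Irf7, the factor that amplifies interferon production, was at 56.2 to 293 CPM (median 184) in controls and 180 to 1123 CPM (median 826) in irradiated tumours (2.18 ± 0.43, adjusted p = 0.00227), with irradiated tumour 5 alone inside the control range. Stat2 rose by 1.37 ± 0.26 and Jak2 by 0.64 ± 0.13, whereas the receptor gene Ifnar1 was at -0.04 ± 0.11 (adjusted p = 0.87).

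Interferon gamma is a strong inducer of the next list. Over all genes 6.06% rose. Of 18 guanylate-binding protein and immunity-related GTPase genes, which defend cells against intracellular pathogens, 15 rose, with a median log2 ratio of 1.53. Their summed level was 444 to 1830 CPM (median 852) in controls and 443 to 4895 CPM (median 2965) after 20 Gy. Irradiated tumour 5 was below every control and irradiated tumour 8, at 1629 CPM, was within the control range. The count fell to 8 without any of unirradiated tumours 2, 6 and 7 or irradiated tumours 3 and 4, to 9 without unirradiated tumour 3 and to 7 without irradiated tumour 7. It reached 18 without irradiated tumour 5 and 17 without unirradiated tumour 8. Gbp5 went from a median of 25 to 108.7 CPM (2.13 ± 0.38, adjusted p = 0.000952) and Irgm1 from 89.8 to 282 CPM (1.501 ± 0.325, adjusted p = 0.00478), each with 7 of 8 irradiated tumours above all controls. Several of these genes have near-identical copies, Tgtp1 and Tgtp2 among them, and their separate values are uncertain.

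All 20 genes of MHC class I presentation had a log2 ratio above 0, with a median of 0.85, and 6 rose. Over all genes 52.3% had a log2 ratio above 0 and 6.06% rose. The peptide loading gene Tapbp, which encodes tapasin, was at 239 to 422 CPM without and 194 to 883 CPM with radiation (0.94 ± 0.21, adjusted p = 0.00728), and H2-T23, the gene of the NK cell ligand Qa-1, went from a median of 95.8 to 317 CPM (1.37 ± 0.33, adjusted p = 0.00979). Irradiated tumour 5 was below every control for both, and the other 7 were above every control. B2m, the light chain of class I, was at 0.63 ± 0.29 (adjusted p = 0.19). The count of 6 became 3 without unirradiated tumour 2 or 5 or irradiated tumour 3 or 7, 2 without irradiated tumour 4 and 12 without irradiated tumour 5. No gene of the 11 of class II presentation passed in edgeR or in DESeq2 (median 0.30, smallest adjusted p 0.450 in edgeR). The median was -0.49 without irradiated tumour 4, and -0.49 with limma-voom and -0.31 with muscle level as a covariate. Their summed level in irradiated tumours ran from 369 CPM in tumour 6 to 18763 CPM in tumour 4.

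**Figure D2:**
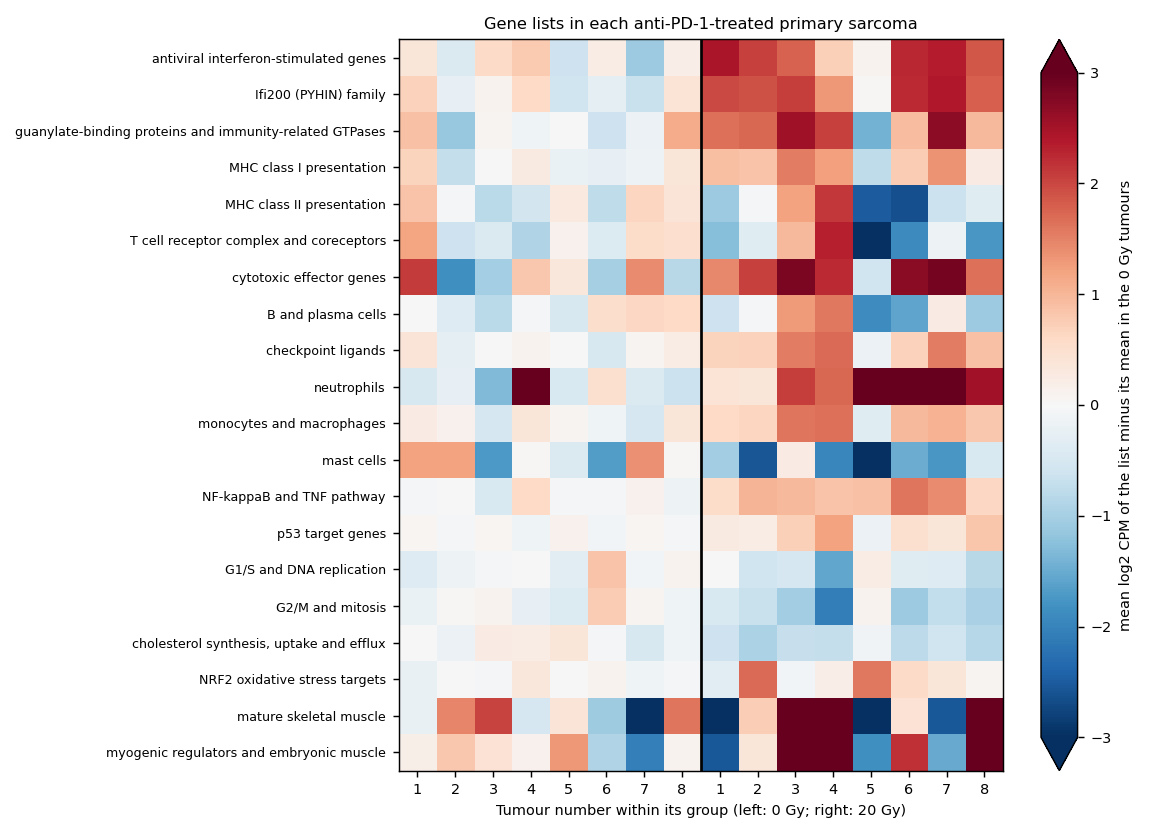
Mean log2 CPM of each of 20 gene lists in each tumour, minus the mean of the list over the 8 unirradiated tumours (colour, log2 units), with unirradiated tumours on the left and irradiated tumours on the right of the line. Interferon lists are red in 7 of 8 irradiated tumours, irradiated tumour 5 is the exception, and muscle lists are highest in irradiated tumours 3, 4 and 8.

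Of 8 chemokine and receptor genes that guide T cells 4 rose (median 1.39), Cxcl10 and Cxcl11 among them, against 6.06% of all genes. Cxcl10 was at 38.3 to 222 CPM (median 86.6) without and 84.6 to 1012 CPM (median 337) with radiation (2.08 ± 0.51, adjusted p = 0.0106). Ccl5 rose from a median of 25.8 to 140.7 CPM (2.22 ± 0.46, adjusted p = 0.00328). Cxcl9, by contrast, spanned 24.4 to 1357 CPM in irradiated tumours and missed the threshold (1.83 ± 0.62, adjusted p = 0.0623). Of 12 monocyte-recruiting chemokines and receptors 8 rose, with a median of 1.90. The monocyte attractant Ccl2 went from a median of 124.7 to 586 CPM (2.02 ± 0.43, adjusted p = 0.00429), Ccl6 from 20.4 to 133.6 CPM (3.14 ± 0.51, adjusted p = 0.000396) and Ccl9 from 40.7 to 176 CPM (2.24 ± 0.35, adjusted p = 0.000276). Ccl11, the eosinophil attractant eotaxin, rose by 3.23 ± 0.71 (adjusted p = 0.0053), with 7 irradiated tumours above and 1 below all controls. With limma-voom the calls of Ccl11 and Cxcl11 were lost.

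Genes of T cells themselves did not pass the test. None of 18 genes of the T cell receptor complex and its coreceptors was called in edgeR or in DESeq2 (median log2 ratio 0.16, smallest adjusted p 0.514 in edgeR). The sign of that median rested on irradiated tumour 4: it was -0.73 without it, and also -0.76 with limma-voom and -0.31 with muscle level as a covariate. Cd3e was at 3.02 to 19.3 CPM (median 7.81) in controls and 0.216 to 47.4 CPM (median 3.69) in irradiated tumours (0.09 ± 0.67, adjusted p = 0.957). Irradiated tumours 1, 5, 6 and 8 lay below every control and tumour 4 above every control. Cd8a, the coreceptor of cytotoxic T cells, spread in the same way, from 0.608 to 40.9 CPM (0.21 ± 0.68, adjusted p = 0.896). Pdcd1, which encodes PD-1, was at 0.412 to 24.8 CPM after 20 Gy and 2.28 to 12.3 CPM without (-0.09 ± 0.63, adjusted p = 0.958), and Foxp3, the factor of regulatory T cells, had a log2 ratio of -0.05 ± 0.62. None of 9 regulatory and costimulatory genes and none of 12 natural killer cell receptor genes passed in edgeR or DESeq2 (medians 0.36 and 0.61, smallest adjusted p 0.133 and 0.212 in edgeR). Without irradiated tumour 4 the former median was -0.27, and without irradiated tumour 3 the latter was 0.18.

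Of 14 cytotoxic effector genes 3 rose, against 6.06% of all genes. Gzmb, the serine protease granzyme B, was at 5.9 to 30.8 CPM (median 14.1) in controls and 4.92 to 147 CPM (median 62.1) in irradiated tumours (2.24 ± 0.61, adjusted p = 0.0222). Irradiated tumour 5 was the lowest of all 16, irradiated tumour 8 fell just inside the control range, and the other 6 exceeded every control. Gzma rose by 2.64 ± 0.73 (adjusted p = 0.0228) and the pore-forming Prf1 by 2.27 ± 0.64 (adjusted p = 0.0262). These calls were near the threshold: Gzmb and Gzma were lost without irradiated tumour 3 (adjusted p = 0.0531 and 0.0706), and Prf1 without unirradiated tumour 2, 3 or 6 or irradiated tumour 6 (adjusted p up to 0.0563). The list had a median of 2.20, and 1 call without irradiated tumour 3, which is close to the share over all genes. Ifng stayed below 3 CPM in every tumour (1.71 ± 0.79, adjusted p = 0.183). Irradiated tumours 1, 6 and 8 combined less Cd3e than any control with Gzmb at 52.5, 63.6 and 30.7 CPM. Genes of natural killer cells, which also carry granzymes, summed to 32.1, 60.3 and 66.9 CPM in those tumours and to 31.7 to 121.4 CPM in controls. The part of these or other cell types in the Gzmb difference was not tested.

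**Figure D3:**
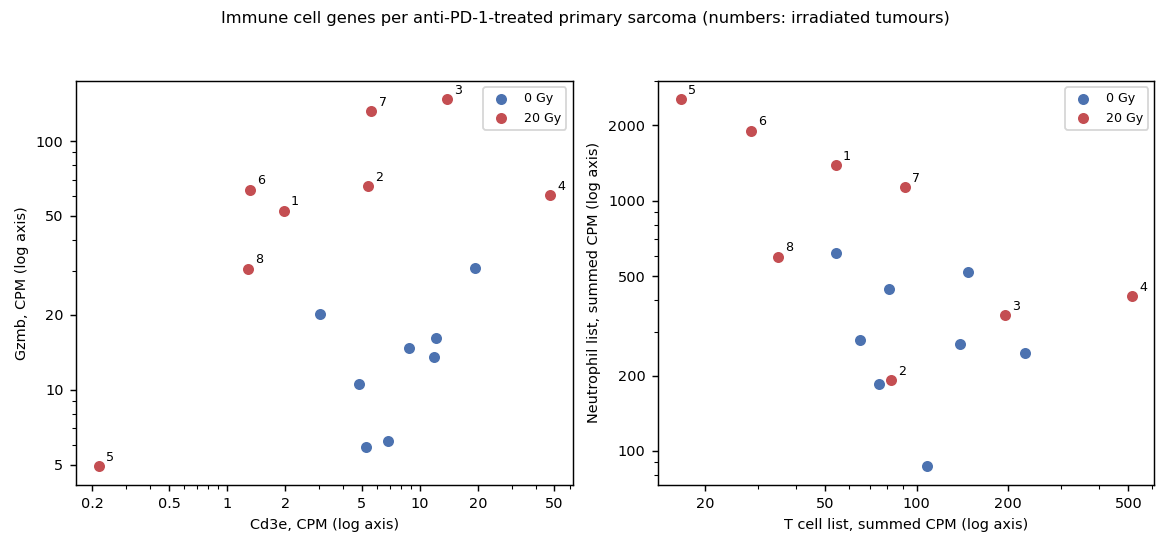
Left, Gzmb against Cd3e in CPM (log axes); right, the summed CPM of the neutrophil list against that of the T cell list (log axes), with 1 point per tumour, unirradiated in blue, irradiated in red and numbered. In the left plot 6 irradiated tumours have more Gzmb than any control across a range of Cd3e from 1.31 to 47.4 CPM, and the irradiated tumours with the most neutrophil RNA, 5 and 6, have the least T cell RNA.

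Among ligands of inhibitory and costimulatory receptors, Cd274 (chr19:29367455-29388095) was at 6.16 to 26.3 CPM (median 11.5) in controls and 11.4 to 108.4 CPM (median 53.8) after 20 Gy, a log2 ratio of 2.28 ± 0.41 (adjusted p = 0.000986). Irradiated tumours 5 and 8 lay within the control range and the other 6 above it. Of 11 genes of checkpoint ligands and related enzymes 7 rose, with a median of 1.0001, and 4 without irradiated tumour 4. Cd80, a ligand of both CD28 and CTLA-4, rose by 1.63 ± 0.33, and Ido1, an enzyme that depletes tryptophan, by 3.26 ± 0.75 from a median of 0.179 to 1.15 CPM. Lag3 was the called gene among 11 inhibitory receptors, at 4.47 to 14.5 CPM without and 9.82 to 33.1 CPM with radiation (1.64 ± 0.33, adjusted p = 0.00291); without irradiated tumour 1 or 8 the list had 2 calls. The B cell and dendritic cell lists each had 1 of 15 genes higher, close to the 6.06% of all genes. In the B cell list it was Cd22 (1.93 ± 0.35), a receptor of B cells, while Cd79a and Ms4a1 were at -0.14 and -0.21. Among the dendritic cell genes it was Itgax (1.51 ± 0.30), an integrin also found on macrophages, and the type 1 dendritic cell genes Xcr1 and Clec9a were at -0.70 and -0.39 without passing.

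Of 24 monocyte and macrophage genes 8 rose (median 0.77), against 6.06% of all genes. The count was 6 without irradiated tumour 3 and 11 without irradiated tumour 5. The inflammatory monocyte gene Ly6c2 went from a median of 18 to 118.4 CPM (2.45 ± 0.57, adjusted p = 0.00846) and the Fc receptor gene Fcgr4 from 22.5 to 71.4 CPM (2.06 ± 0.47, adjusted p = 0.00752), each with 7 of 8 irradiated tumours above all controls. Cd68, a lysosomal protein of macrophages, rose by 0.95 ± 0.21. The tissue macrophage genes Adgre1 (0.75 ± 0.31, adjusted p = 0.132), Csf1r (0.12 ± 0.27) and Mrc1 (0.00 ± 0.36) did not pass. Of 11 complement genes 4 rose (median 0.94), including the factor B gene Cfb (2.51 ± 0.41) and Cfp, the gene of properdin, which was at 50.3 to 81 CPM without and 85.3 to 286 CPM with radiation (1.43 ± 0.24, adjusted p = 0.000561), with no overlap.

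Of 18 neutrophil genes 6 rose (median log2 ratio 1.89), against 6.06% of all genes. The count became 14 without unirradiated tumour 4 and 3 without unirradiated tumour 2, 3, 7 or 8 or irradiated tumour 6. The median became 3.30 without unirradiated tumour 4. Summed, they reached 86.8 to 621 CPM in controls and 192 to 2547 CPM in irradiated tumours. The neutrophil collagenase gene Mmp8 was at 0.284 to 3.52 CPM (median 0.421) without and 0.847 to 134.7 CPM (median 10.5) with radiation (4.92 ± 0.88, adjusted p = 0.000952), with 6 of 8 irradiated tumours above all controls. S100a8, an abundant neutrophil protein gene, was at 90.9 CPM in unirradiated tumour 4 and at most 4.63 CPM in the other controls, and spanned 3.27 to 200 CPM after 20 Gy (1.90 ± 1.17, adjusted p = 0.341). Of 6 genes of neutrophil attractants 3 were called, Cxcl1, Cxcl2 and Cxcl3; 5 were called without unirradiated tumour 4, 1 without any of unirradiated tumours 1, 2, 3, 6, 7 and 8, and 0 without irradiated tumour 6.

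Il1rn (chr2:24336853-24351494), the antagonist of the interleukin-1 receptor, was at 6.42 to 36.3 CPM (median 10.4) in controls and 41.1 to 155 CPM (median 77.1) after 20 Gy. Even unirradiated tumour 4, the highest control, stayed below every irradiated tumour (2.60 ± 0.34, adjusted p = 4.8e-05). Il18bp, which neutralizes interleukin-18, rose by 2.22 ± 0.34, and Il1a by 3.61 ± 0.73 from a median of 0.0998 to 1.47 CPM. Il1b was at 1.01 ± 0.66 (adjusted p = 0.37). Of the 12 interleukin-1 family genes 4 rose, against 6.06% of all genes. In the NF-kappaB and TNF list 10 of 15 rose (median 0.88). Tnfaip3, the feedback inhibitor A20, went from 12.6 to 26.6 CPM in controls to 27.4 to 106.2 CPM (1.32 ± 0.22, adjusted p = 0.000461) and Relb from 32.6 to 46.7 CPM to 47.2 to 66 CPM (0.58 ± 0.13, adjusted p = 0.00448), both without overlap. Il6 rose by 3.34 ± 0.74 from a median of 0.624 to 5.63 CPM.

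In the mast cell list 1 of 12 genes fell, against 1.86% of all genes. Mcpt2, a mast cell protease gene, was at 0.568 to 23.7 CPM (median 5.2) in controls and 0.0196 to 1.1 CPM (median 0.177) after 20 Gy (-4.54 ± 0.87, adjusted p = 0.00179), and 7 irradiated tumours lay below every control. Of the 12 mast cell genes 11 had a log2 ratio below 0 (median -1.65), but the defining genes Cpa3 (-1.94 ± 0.81, adjusted p = 0.14) and Kit (-0.68 ± 0.41, adjusted p = 0.33) did not pass.

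**Figure D4:**
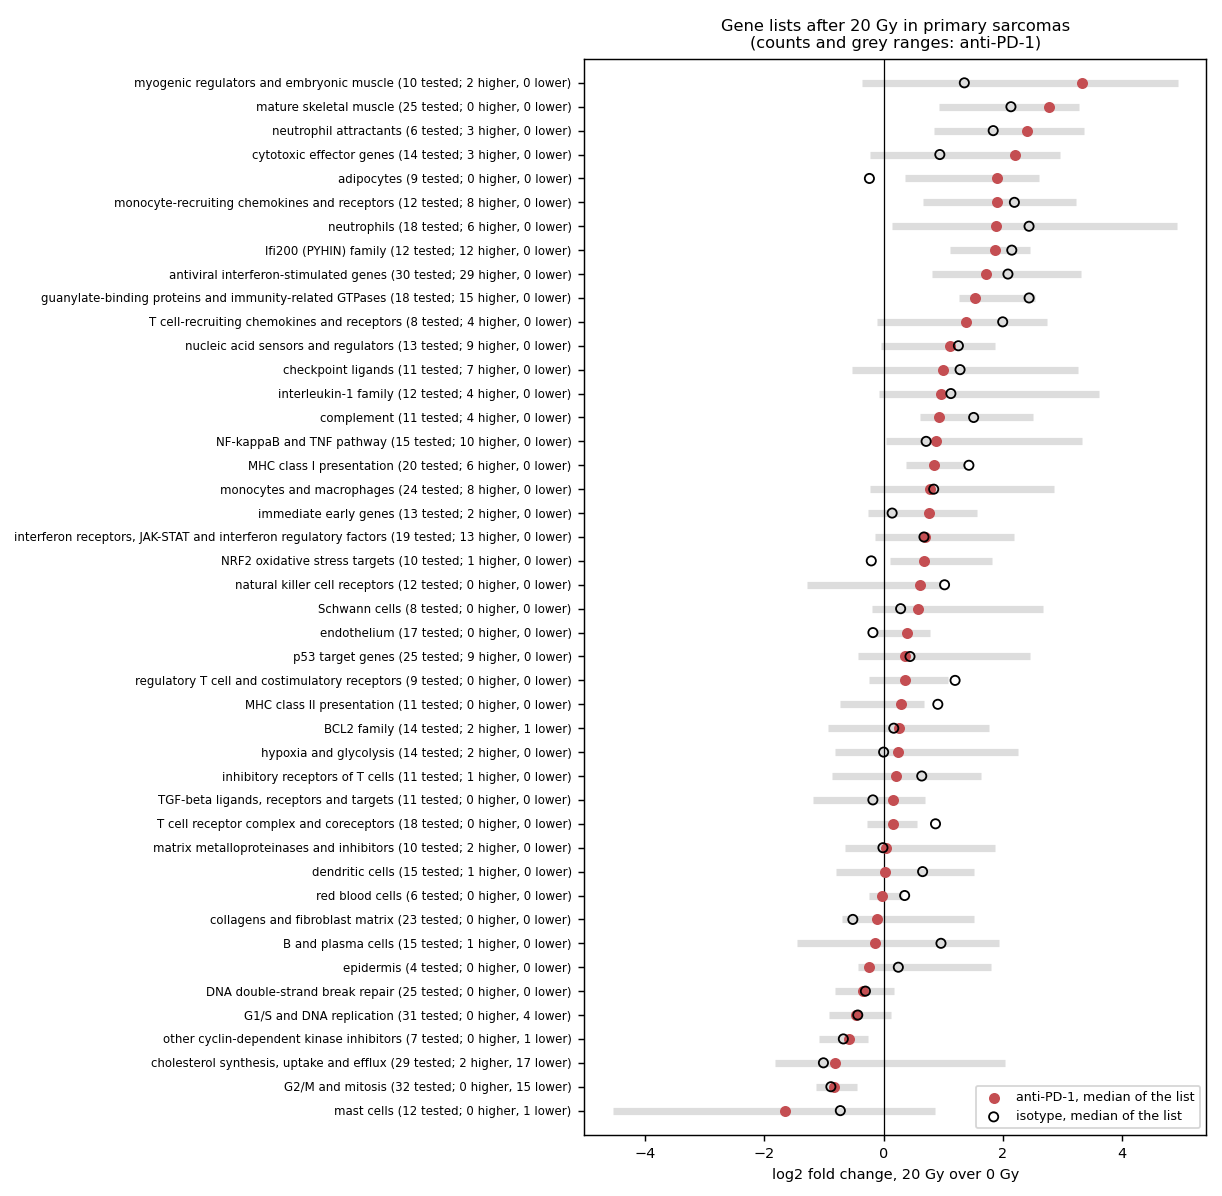
Median log2 ratio of 20 Gy over 0 Gy for each of the 44 gene lists under anti-PD-1 (red) and isotype (open circles), with the range of single genes under anti-PD-1 as a grey bar and the numbers tested and called beside each name. Interferon lists lie to the right of 0 with both antibodies, and mitotic and cholesterol lists to the left.

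Among p53 targets, Cdkn1a (chr17:29090976-29100727), the cyclin-dependent kinase inhibitor p21, had the clearest increase. It was at 32 to 55.6 CPM (median 46.3) in the unirradiated tumours and 79 to 475 CPM (median 229) in the irradiated ones. The groups did not overlap, tumour 5 was the lowest and tumour 4 the highest irradiated tumour, and the log2 ratio was 2.46 ± 0.25 (adjusted p = 3.76e-07). Mdm2, which encodes the ligase that degrades p53, rose by 0.52 ± 0.12 (adjusted p = 0.00603), with irradiated tumour 8 (52.8 CPM) alone inside the control range. Trp53inp1 rose by 1.203 ± 0.274. Ccng1, which encodes cyclin G1, was at 816 CPM in irradiated tumour 4, 347 in tumour 8 and 273 in tumour 3, the tumours with most muscle RNA, and at 81.5 to 143.8 CPM in the other irradiated tumours (controls 80.8 to 111.2 CPM). Its log2 ratio of 1.36 ± 0.36 (adjusted p = 0.0176) was not called without tumour 4 (adjusted p = 0.098).

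Across all 25 p53 targets 9 rose, with a median of 0.37, against 6.06% of all genes, and the apoptosis genes Bbc3 (0.29 ± 0.20) and Pmaip1 (0.62 ± 0.27) were not called. The count of 9 fell to 5 without unirradiated tumour 2 or irradiated tumour 3, to 3 without irradiated tumour 4 and to 2 with irradiated tumours 4 and 8 both left aside, an alternative added after the data had been seen. Cdkn1a was called in all of these fits and had a log2 ratio of 2.22 with the isotype antibody. With muscle level as a covariate 9 of the list were called, as in the full fit, with a median of 0.33. No gene of 25 in double-strand break repair passed in edgeR (median -0.34, smallest adjusted p 0.0764), although 1 fell without irradiated tumour 1 and 3 without irradiated tumour 5, and 2 fell with DESeq2 and with all 48 tumours in the fit.

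In the G2/M and mitosis list 15 of 32 genes fell, none rose, and all 32 had a log2 ratio below 0, with a median of -0.83, against 1.86% lower among all genes. Summed, they were at 1747 to 3945 CPM (median 2290) in controls and 581 to 2504 CPM (median 1287) in irradiated tumours. Tumour 4 was the lowest, and tumour 5, the highest irradiated tumour, was above the control median. Iqgap3, a scaffold protein gene of dividing cells, fell from 22.1 to 58.2 CPM (median 35.4) to 9.29 to 24.6 CPM (median 17.2), a log2 ratio of -1.14 ± 0.21 (adjusted p = 0.00108). Ccnb2, which encodes the mitotic cyclin B2, fell by 1.09 ± 0.24 on the log2 scale (adjusted p = 0.00629) and Kif23, a motor protein gene of cytokinesis, by 1.07 ± 0.26 (adjusted p = 0.00979). Mki67, the proliferation marker, went from a median of 161 to 78.1 CPM (-0.89 ± 0.25, adjusted p = 0.0274), with irradiated tumour 5 at 164 CPM. Its call was lost without unirradiated tumour 3, 6 or 7 or irradiated tumour 4 or 6 (adjusted p up to 0.0584). The count of 15 became 29 without irradiated tumour 5, 9 without irradiated tumour 3 or 7, and 7 without unirradiated tumour 6 or irradiated tumour 4 or 6.

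Of 31 genes of the G1/S transition and DNA replication 4 were called, all lower, with a median of -0.46, against 1.86% lower among all genes. They were Rrm1 (-0.72 ± 0.19), Uhrf1 (-0.77 ± 0.23), Tk1 and Mcm5, which supply nucleotides, maintain DNA methylation or form part of the replicative helicase. Rrm1 lost its call without unirradiated tumour 6 (adjusted p = 0.0563), Uhrf1 in 6 of the 16 leave-outs (adjusted p up to 0.0770), Tk1 in 7 (up to 0.0883) and Mcm5 in 10 (up to 0.165). The count was 9 without irradiated tumour 5, 7 without irradiated tumour 1, 2 without unirradiated tumour 2, 1 without irradiated tumour 3, 4, 6 or 8 and 0 without unirradiated tumour 6. Pcna, the sliding clamp, was at -0.33 ± 0.21 (adjusted p = 0.37). Among the 7 other cyclin-dependent kinase inhibitors none rose and Cdkn3 was lower (-1.09 ± 0.34, adjusted p = 0.042), a call absent in 9 of the 16 leave-outs.

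Promoters of these cell cycle genes are shown because promoters of cell cycle genes often carry an E2F site or a cell cycle homology region (CHR). The CHR letters TTTGAA or TTCGAA, on either strand, were found for 22 of 26 mitosis genes with a promoter, against 16.9% of all 12412 and 25.8% of the genes that fell. The E2F letters TTTGGCGC or TTTCGCGC were found for 10 of 25 replication genes, against 1.58% of all. The windows are chr3:88081951-88082070 (plus strand), chr9:70421659-70421778 (minus), chr9:61946780-61946899 (minus) and chr17:56304072-56304191 (plus), with matches in capitals, and TTCAAA in Iqgap3 is TTTGAA read on the other strand.
Iqgap3: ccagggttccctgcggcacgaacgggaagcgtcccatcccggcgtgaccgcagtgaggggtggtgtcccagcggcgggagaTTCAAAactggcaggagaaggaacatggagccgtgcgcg
Ccnb2: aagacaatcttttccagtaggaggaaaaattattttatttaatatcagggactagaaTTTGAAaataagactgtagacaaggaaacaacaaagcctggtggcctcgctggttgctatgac
Kif23: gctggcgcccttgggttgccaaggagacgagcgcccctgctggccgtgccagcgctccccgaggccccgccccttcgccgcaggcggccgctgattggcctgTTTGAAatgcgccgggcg
Uhrf1: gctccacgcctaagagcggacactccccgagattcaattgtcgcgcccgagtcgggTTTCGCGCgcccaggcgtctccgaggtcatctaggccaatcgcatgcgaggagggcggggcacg
The full p53 response element was found in 1 of the 12412 promoters and in none of the 19 promoters of listed p53 targets. That says only that its letters were not in these windows.

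Of 29 genes of sterol synthesis, uptake, regulation and efflux 17 fell, 2 rose and 10 were not called, with a median of -0.81, against 1.86% lower among all genes. Between 12 and 19 fell in the fits that left out a tumour. In the synthesis pathway 13 of 19 enzymes fell. Hmgcs1, which makes HMG-CoA, was at 65.6 to 124.5 CPM (median 81.8) in controls and 37.4 to 66.8 CPM (median 42.6) in irradiated tumours (-1.002 ± 0.196, adjusted p = 0.00221), and irradiated tumour 5 alone reached the control range. The lanosterol demethylase gene Cyp51 fell by 1.43 ± 0.28 (adjusted p = 0.00219), from a median of 51.5 to 16 CPM. Srebf2, the gene of the transcription factor SREBP2 that drives the pathway, fell by 0.94 ± 0.21.

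Stard4, a carrier of cholesterol between membranes, went from 45.2 to 68.1 CPM to 25.7 to 43.7 CPM, without overlap (-0.76 ± 0.12, adjusted p = 0.000396). By contrast the efflux pump gene Abcg1 rose by 1.597 ± 0.281 (adjusted p = 0.000926), and Nr1h3, the gene of the oxysterol receptor LXR alpha that drives efflux genes and is abundant in macrophages, went from 4.11 to 8.11 CPM to 10.6 to 41.4 CPM (2.03 ± 0.28, adjusted p = 0.00012) with no overlap. Abca1 (0.73 ± 0.28, adjusted p = 0.10) and Srebf1 (-0.14 ± 0.15) did not pass. With irradiated tumours 4 and 8 left aside, 11 of the genes fell.

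The sterol regulatory element, searched as TCACNCCAC on either strand, was found for 1 of 20 listed cholesterol genes with a promoter and for 1.40% of all promoters. That gene was Hmgcs1, and its window is chr13:119690158-119690277 on the plus strand, with the match in capitals.
Hmgcs1: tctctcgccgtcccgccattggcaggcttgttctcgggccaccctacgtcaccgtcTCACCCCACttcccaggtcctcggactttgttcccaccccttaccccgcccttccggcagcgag
Other spellings of the element were not searched, and the other promoters were only found to lack these letters.

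**Figure D5:**
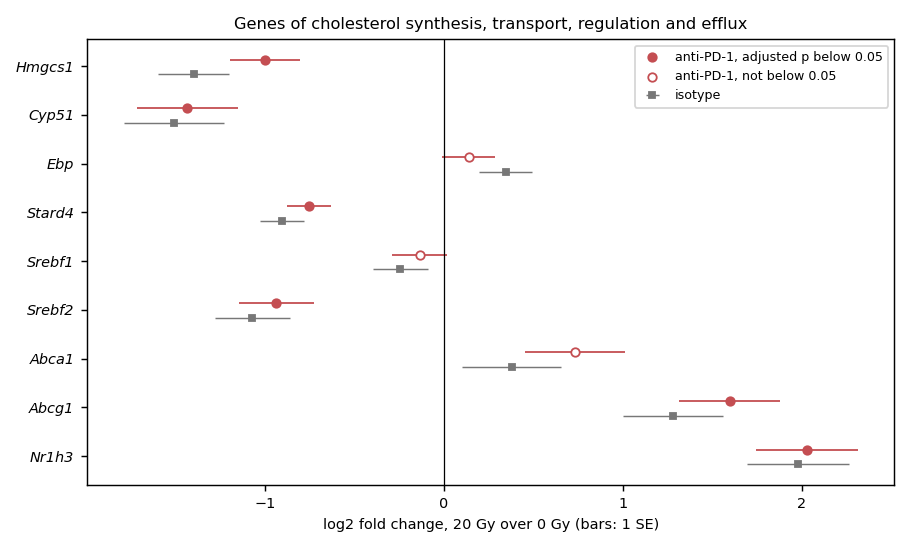
Log2 ratio of 20 Gy over 0 Gy (bars, 1 SE) for the 9 cholesterol genes named here under anti-PD-1 (red, filled where the adjusted p was below 0.05) and under isotype (grey). Hmgcs1, Cyp51, Stard4 and Srebf2 lie left of 0 with either antibody, Abcg1 and Nr1h3 lie to the right, and Ebp, an isomerase of the pathway, is near 0 (0.14 under anti-PD-1).

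Of the 5 called genes with the largest increases among genes that averaged 5 CPM or more after 20 Gy, 4 were muscle genes carried by few tumours, and the other was Mmp8, described above. Sln, which regulates the muscle calcium pump, was at 414, 36.3 and 31.9 CPM in irradiated tumours 4, 8 and 3 and at most 3.22 CPM in the other 13 tumours (5.59 ± 1.61, adjusted p = 0.0286). Its call was lost without irradiated tumour 4 or unirradiated tumour 2, 6 or 7 (adjusted p up to 0.215). Myh3, the embryonic myosin, reached 120 CPM in irradiated tumour 3 and was not called without it (adjusted p = 0.138). All 25 mature muscle genes had a log2 ratio above 0 (median 2.77), but none was called in edgeR, and 1 was called without irradiated tumour 1 or 5. DESeq2 called 7 of them and the fit of all 48 tumours 1. The median was 1.19 without irradiated tumour 4 and 0.05 with limma-voom. With the summed muscle level as a covariate 1546 genes in all were called in place of 1407. Among the largest decreases above the same level in the unirradiated tumours, the meiosis gene Morc1 was at 18.1, 18.7 and 26.5 CPM in unirradiated tumours 1, 2 and 4 and below 0.35 CPM in the other 13 (-6.02 ± 1.69, adjusted p = 0.0255).

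Smaller lists held 1 to 3 calls each. Of 10 myogenic genes, which act in muscle regeneration, 2 rose, Myh3 and the fusion gene Mymk (median 3.33); 6 rose without irradiated tumour 1, 4 without irradiated tumour 5, 1 without unirradiated tumour 2, 3, 6, 7 or 8 and 0 without irradiated tumour 3. DESeq2 and the fit of all 48 tumours each called 8 of them. The median was 1.09 with limma-voom, which called 0, and 1.29 with muscle level as a covariate. Of 14 Bcl-2 family genes 2 rose and 1 fell, of 10 matrix protease and inhibitor genes 2 rose, of 14 hypoxia genes 2 rose and of 13 immediate early genes 2 rose. Over all genes 6.06% rose and 1.86% fell. Leaving out single tumours moved the rising counts of these 4 lists between 0 and 4.

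None of 23 collagen and matrix genes (median -0.11), 17 endothelial genes (median 0.40) or 11 genes of TGF-beta signalling (median 0.16) passed in edgeR. Without irradiated tumour 8 the matrix median was -0.37 and the TGF-beta median 0.02. DESeq2, the fit of all 48 tumours and the fit of the compared groups alone each called 1 TGF-beta gene lower. Single leave-outs gave at most 1 call in these lists: a matrix gene without irradiated tumour 8, an endothelial gene without irradiated tumour 1 or 5, and a TGF-beta gene without unirradiated tumour 4 or irradiated tumour 1. Adipocyte, epidermal, Schwann cell and red blood cell genes gave no call in the full edgeR fit either (medians 1.90, -0.25, 0.57 and -0.03), apart from 1 adipocyte gene without irradiated tumour 1 or 5 and 1 Schwann cell gene without irradiated tumour 1, 2 or 5. DESeq2 called 1 gene in each of the first 3 of these lists, the fit with muscle level as a covariate 1 adipocyte gene and the fit of all 48 tumours 1 Schwann cell gene. Without irradiated tumour 4 the adipocyte median was 0.79 and the Schwann cell median -0.11. The red blood cell median was -0.46 without irradiated tumour 4 and 0.81 without unirradiated tumour 4. The epidermal median was 0.16 without unirradiated tumour 7. Adipocyte genes summed to 536 CPM in irradiated tumour 4 and to at most 140.7 CPM elsewhere.

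The isotype arm, which shares no tumour with the anti-PD-1 arm, asks whether the radiation effect depended on the antibody. With isotype 1395 genes rose (7.85%) and 1180 fell (6.64%) after 20 Gy. Of the genes that rose under anti-PD-1, 722 also rose under isotype, 67.0% of the former list and 51.8% of the latter. Of those that fell, 222 also fell, 67.3% of the former and 18.8% of the latter. Most of the remainder had the same sign: 329 of the 355 higher genes, and 100 of the lower ones. A direct test of the difference between the 2 effects called 0 of 17770 genes (0%) in edgeR, with a smallest adjusted p of 0.971 and 756 genes at an unadjusted p below 0.05. DESeq2 called 1, Cck, a peptide hormone gene that stayed below 0.28 CPM in controls and reached 17.5 CPM in irradiated tumour 6.

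Side by side, Cdkn1a had log2 ratios of 2.46 under anti-PD-1 and 2.22 under isotype, Ifi207 of 1.87 and 1.91, Stard4 of -0.76 and -0.90, and Cd274 of 2.28 and 2.90. The GTPase list had a median of 1.53 against 2.44, MHC class I of 0.85 (6 called) against 1.43 (20 called), and the T cell receptor list of 0.16 against 0.87 (0 called in both, and -0.73 under anti-PD-1 without irradiated tumour 4). Those counts do not show a difference between antibodies, since none of these genes passed the test of the difference. Ccr3, the eotaxin receptor, was at 0.276 to 1.07 CPM without and 0.719 to 11.9 CPM with radiation under anti-PD-1 (3.49 ± 0.52, adjusted p = 0.000231) and had a ratio of 1.52 under isotype (adjusted p of the difference 0.971, edgeR). In the list of NRF2 targets, which answer to oxidative stress, 7 of 10 genes reached an unadjusted p below 0.05 for the difference and none passed. Their medians were 0.68 and -0.21, and Nqo1 was at 138.2 and 95.9 CPM in irradiated tumours 2 and 5 and at most 22.4 CPM in the rest of the 16. Its own call (1.82 ± 0.56, adjusted p = 0.0405) was absent in 9 of the 16 leave-outs, and the list had 0 to 5 calls in them. The 3 genes with the smallest p of the difference, Colec10, Igkv4-68 and Amph, had log2 ratios of 1.45, 4.74 and -0.72 under anti-PD-1 and -4.11, -1.82 and -3.13 under isotype. Igkv4-68, an immunoglobulin segment with close copies, reached 42.3 CPM in 1 irradiated tumour, and its call under anti-PD-1 was lost without irradiated tumour 4.

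Tumour kind was examined with the 16 allografts added, in a fit of 19327 genes. Under anti-PD-1 the effect of 20 Gy differed between primary tumours and allografts for 0 of 19327 genes (0%) in edgeR (smallest adjusted p 0.287, 922 genes at an unadjusted p below 0.05). DESeq2 called 3: Car4, a carbonic anhydrase gene, with log2 ratios of 4.90 in primary tumours and -1.09 in allografts, the platelet chemokine gene Ppbp (2.48 and -4.27) and Rem2 (1.49 and -1.80). In that fit 2156 genes were called in primary tumours, with 8 tumours in a group, and far fewer in allografts, with 4.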

How the data were processed

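RNA was extracted from whole tumours, and poly(A) libraries were made with a stranded kit from extracts with an RNA integrity number above 7, per the labels' protocols. The deposited table holds raw counts of reads per gene, 36854 genes by 48 tumours, with no normalization by the authors. Trimmomatic 0.36, STAR 5.5.4b, HTSeq and mm10 are named in the submitters' processing notes, and the strand setting of the counting is not given in the sources used here, so overlapping and antisense genes are uncertain. A stricter mapping or another rule for reads that fit several genes could move counts of gene families, which was not tested. No row named anything but a gene.

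The counts of the 32 primary tumours were filtered with filterByExpr, scaled by TMM and tested with edgeR 4.0.16 (quasi-likelihood F test, limma 3.58.1, R 4.3.3), with 1 coefficient for each of the 4 groups and 28 residual degrees of freedom. Adjusted p-values are Benjamini-Hochberg values over the 17770 genes kept, and each SE was derived from the log2 ratio and its F statistic. The biological coefficient of variation was 0.50. Totals of 34.7 to 53.3 M counts per tumour limit the precision of genes below about 1 CPM. No pair of libraries of a group agreed within counting noise (chi-square per degree of freedom from 85.6 to 995 over 56 pairs), which shows only that none was deposited again as a copy. The script was tested on simulated data.

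Members and the 44 gene lists (685 genes, of which 669 passed the filter) were chosen with earlier results of these data known. Lists are described by counts and medians, with no set test. Genes were named by rule: the 15 higher and 10 lower called genes of smallest p and at least 5 CPM in the higher group, the 5 largest folds each way above the same level, up to 4 called genes of each list with at least 1 CPM, 25 panel genes and 3 genes of smallest interaction p. Other list members are named as examples, and were chosen after their values were seen. Alternatives were DESeq2 1.42.0, limma-voom, DESeq2 size factors, other filters, Xist or muscle level as a covariate, other sets of tumours in the fit and leaving out each tumour. Gene positions are from GENCODE M21, promoters from RefSeq (GRCm38.p6). Some members of these lists are counted in them but are not reported here by name.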

Additional observations from a re-analysis of the deposited data

Results flagged for a closer look

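A tumour was marked where it stood far from the other 7 of its group, its gap to the nearest neighbour exceeding 0.526 of the group's range (Dixon's 95% limit for 8 values). In 182 sets of 8 values 22 were marked, and chance marks about 1 in 20. Gene values are log2(CPM + 0.1), list values are mean log2 CPM.

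Irradiated tumour 5 accounted for 11 of them. It was the lowest irradiated tumour for Trim30c (1.34, median of the others 3.70), Slfn1 (4.93, others 6.56), Cndp2 (6.46, others 7.14) and Gzmb (2.33, others 5.99), and for the lists of Ifi200 genes (3.43, others 5.37), nucleic acid sensors (4.97, others 6.16), guanylate-binding proteins and immunity-related GTPases (3.41, others 6.55) and cytotoxic effectors (0.61, others 3.45). It was the highest irradiated tumour for Mki67 (7.35, others 6.12), Hmgcs1 (6.06, others 5.37) and the cholesterol list (4.79, others 4.18).

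Unirradiated tumour 4 was the highest control for Il1rn (5.19, others 3.36), S100a8 (6.51, others 0.26) and the lists of neutrophil genes (3.73, others 0.17), neutrophil attractants (3.74, others 0.11) and the interleukin-1 family (4.75, others 3.29). Unirradiated tumour 6 was the highest control for the replication (6.41, others 5.48) and mitosis lists (6.70, others 5.81), and unirradiated tumour 7 the lowest for Cndp2 (5.74, others 6.31). Irradiated tumour 4 had the highest mitochondrial share (2.32%, others 0.797%) and the lowest Phf19 (1.99, others 3.16), and irradiated tumour 8 the lowest Mdm2 (5.73, others 6.45).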

How the results depend on the processing

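The count of 1407 genes changed by 20 Gy stayed within 1.5 times of itself in 22 of 27 alternatives. It was 2188 with DESeq2, 2156 with all 48 tumours in the fit, 822 with only the groups compared and 869 with irradiated tumours 4 and 8 left aside, an alternative added after the data were seen. Leaving out single tumours gave 896 to 1928. The cause of these changes was not tested. The dose by antibody and tumour kind tests called 1 and 3 genes with DESeq2 and 0 in the other alternatives. Of the called named genes 78 kept their call in every alternative that gave them a value (26 of 27 for Ido1, 27 for the others) and 85 in every single leave-out, and 0 of 3582 comparisons reversed. Called counts of several lists moved by over 1.5 times. With only the groups compared, signalling genes had 8 calls against 13, GTPases 7 against 15, MHC class I 3 against 6, checkpoint ligands 3 against 7, neutrophil genes 3 against 6 and p53 targets 4 against 9. With limma-voom the GTPase count was 8, MHC class I 3, T cell chemokines 2, checkpoint ligands 3 and p53 targets 5. DESeq2 gave 5 cytotoxic, 5 neutrophil attractant and 7 replication calls, against 3, 3 and 4, and the fit of 48 tumours 23 mitosis calls, against 15. With tumours 4 and 8 aside, mitosis had 5 and replication 0. The muscle list's median of 2.77 became -0.14 with muscle level as a covariate. That covariate is the summed level of the same list, so this fall was built in and tests nothing. No paired analysis was possible because the labels give the groups no shared replicate numbers. Genes near or below 1 CPM, and those split among close copies, are uncertain.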

Other observations

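The following groups were assembled after the values had been seen and are given as a description, without a test of any group. Lysosomal genes were often higher after 20 Gy: of 40 genes of lysosomal enzymes and membrane proteins 18 rose (6.06% of all genes rose), none fell, and the median log2 ratio was 0.40 (13 rose and none fell with isotype, median 0.31). Tcirg1, a subunit of the proton pump, was at 80.6 to 123.9 CPM without and 150 to 272 CPM with radiation (0.92 ± 0.16, adjusted p = 0.000622, edgeR), and the groups did not overlap. Ctsl (-0.06 ± 0.33) and Smpd1 (-0.01 ± 0.16) did not pass. Of 24 monocyte and macrophage genes, from cells rich in lysosomes, 8 rose as well, and their part in this difference was not tested.

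Interferon genes themselves were close to 0. Of 20 type I and III interferon genes looked for, 13 were in the table and Ifnb1 alone passed the filter on low counts. Its level was 0 to 0.322 CPM without and 0.0342 to 0.765 CPM with radiation (1.74 ± 0.73, adjusted p = 0.146, edgeR). With isotype Ifnb1 rose (2.53 ± 0.72, adjusted p = 0.0171, edgeR), and the difference between the antibodies did not pass (adjusted p = 0.975). The myeloid growth factor gene Csf2, which encodes GM-CSF, rose from a median of 0.0873 to 0.86 CPM (4.31 ± 0.75, adjusted p = 0.000814) with no overlap. Its receptor genes Csf2ra (0.79 ± 0.20) and Csf2rb (1.40 ± 0.28) rose too, with overlap, whereas Csf1 did not pass (-0.06 ± 0.27). Of 10 genes of eosinophils 6 passed the filter and 3 rose, Ccr3 (3.49 ± 0.52), Siglecf (1.88 ± 0.56) and Alox15 (3.72 ± 0.89), against 6.06% of all genes. Their medians after 20 Gy were 6.73, 1.16 and 0.969 CPM, with 7, 2 and 4 irradiated tumours above every control. The highest value of Alox15 was 29.6 CPM. Ear2 (1.39 ± 0.62), Il5ra (0.77 ± 0.71) and Prg2 (-0.04 ± 0.70) did not pass, and the granule protein genes Epx and Ear1 stayed below 0.1 CPM in all 16 tumours.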
